A study of Macaca fascicularis with 4 samples.

Results

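Metanephric mesenchyme-like cells of the cynomolgus monkey (Macaca fascicularis) at embryonic day 37 (E37) were taken as the cell barcodes of the E37 library with 1 or more unique molecular identifier (UMI, a count of captured transcript ends) in at least 3 of 6 genes, HOXA11, HOXD11, EYA1, SIX2, SALL1 and CITED1. The rule chose 172 of 5298 E37 barcodes (3.25%, exact binomial 95% interval 2.79% to 3.76%), against 27626 barcodes in the whole series of 4 libraries. Embryo fragments of 4 ages gave 1 library each, E24 at Carnegie stage 11, E28 at stage 13, E31 at stage 14 and E37 at stage 18. The E24 title names more than 1 embryo, and E24 was used as 1 library. No treatment or genotype is given. At E37 the dissected tissue was mostly gonadal ridge, with some attached mesonephros, presumed adrenal gland and proximal mesentery, after anterior and posterior tissue and most of the mesonephros had been cut away. At E28 and E31 the urogenital ridge was taken with its mesonephros and coelomic epithelium, and at E24 a larger part of the trunk without the heart and the posterior growth zone.

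The metanephros is the permanent kidney, and it forms when the ureteric bud, an outgrowth of the nephric duct, grows into the metanephric mesenchyme at the hind end of the intermediate mesoderm. HOX11 proteins with EYA1 and PAX2 switch on GDNF, the ligand that draws the bud towards the mesenchyme through the receptor RET and its partner GFRA1. SIX2, CITED1 and SALL1 mark the nephron progenitors that cap the bud, which later turn on WNT4, PAX8 and LHX1 as they form nephrons.

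With 1 library per stage there is no replicate and no test, and cells of a library are not replicates. Levels are given as CPM, the UMIs of a gene summed over the chosen barcodes per 1000000 UMIs of those barcodes, beside the same sum over the other 5126 E37 barcodes. Intervals are exact 95% intervals (Poisson for a level, conditional binomial for a ratio, binomial for a share) and cover counting error only. Total UMIs per barcode at E37 ran from 2259 to 37802, with medians of 7727 in the chosen and 6642 in the other barcodes. The chosen barcodes held 1475933 UMIs in all, so 0 UMIs were taken to allow a level of up to 2.03 CPM, that of 3 counts, and each fold given as "at least" rests on it. The exact two-sided interval of 0 UMIs reaches 2.499 CPM. E37 shared 149 barcode sequences (2.81%) with another library, 4 of them chosen, and Scrublet, which scores barcodes that look like 2 cells, had a median score of 0.0207 in the chosen and 0.0295 in the others. Among the 225 highest scores of the library were 15 of the chosen (8.72%) and 210 of the others (4.10%).

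The 6 rule genes chose the barcodes, so their levels are a description. EYA1, a phosphatase and transcriptional co-activator, had 432 UMIs in the chosen barcodes and was seen in 89.5% of them, against 2.77% of the others. SALL1, a zinc-finger factor of the nephron progenitor, was seen in 70.9% and 3.26%, and HOXA11 in 65.7% and 2.15%. CITED1, a transcriptional co-regulator, was seen in 54.1% and 1.09%. SIX2, the factor that holds nephron progenitors in an undifferentiated state, was seen in 53.5% (121 UMIs) and in 0.293% of the others (17 UMIs). HOXD11 was the least often seen, in 43.6% and 3.39%. HOXA11 or HOXD11 was present in 144 of the 172 barcodes and both in 44, and 28 had neither. The most common combinations were HOXA11 with EYA1 and SALL1, the same 3 with CITED1, and the same 3 with SIX2, in 12 barcodes each. After each barcode had been thinned to 2000 UMIs at random, EYA1 was still seen in 44.8% of the chosen barcodes and SIX2 in 13.95%, against 0.995% and 0.156% of the others, and only 24 E37 barcodes (0.453%) would then meet the rule.

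Each rule gene can be set against barcodes chosen by at least 3 of the other 5. EYA1 was present in 83.8% (75.6% to 90.1%) of the 111 barcodes chosen without it, and in 3.91% of the rest, a 29.1-fold difference in level. SIX2 was present in 42.9% (34.5% to 51.5%) of the 140 barcodes chosen without it, 43.8-fold above the rest. The ratio was 36.1-fold for CITED1, 21.1-fold for HOXA11, 20.3-fold for SALL1 and lowest for HOXD11, at 7.64-fold. HOXD11 also had the lowest share, 34.5% of the 148 barcodes chosen without it. The sets were chosen by the rule genes themselves, so these values are a description. They were also deeper than the library, with medians of 7732.5 to 8473 UMIs against 6672.5. The ratios depend on the level in the rest as well. In the later clustering HOXD11 stood at 53.3 CPM in cluster 17, with most of the chosen barcodes, and at 45.8 in cluster 18.

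**Figure D1:**
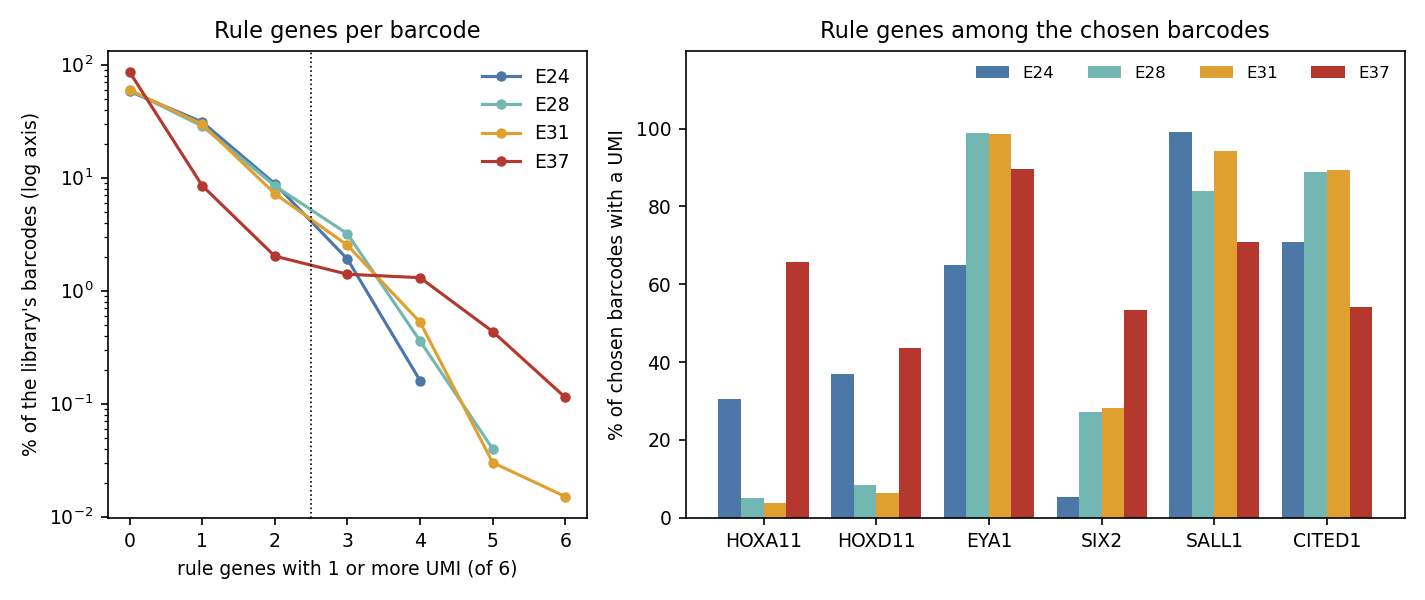
Left, percent of each library's barcodes (log axis) by the number of rule genes with a UMI, with the threshold as a dotted line. Right, percent of the chosen barcodes with a UMI of each rule gene in the 4 libraries. The E37 line lies lowest at 1 to 3 rule genes and highest at 4 to 6, and HOXA11 was seen in 65.7% of the chosen barcodes at E37 and in 30.6%, 5.00% and 3.88% at E24, E28 and E31.

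At the threshold, 74 barcodes had exactly 3 rule genes and 107 had exactly 2. GDNF stood at 63.9 CPM (45.2 to 87.7) in those with 3, 48.0 (34.3 to 65.3) with 2, 11.9 with 1 and 2.35 with none. DCN, a matrix proteoglycan of fibroblasts, stood at 11.8 with 3 rule genes, 26.4 with 2, 89.7 with 1 and 373 with none. NFIA, a nuclear factor of differentiating mesenchyme, stood at 28.6, 62.4, 90.2 and 132 in the same order. Barcodes with 2 rule genes thus lay between those with 3 and those with 1 for these genes. For GDNF and DCN their interval overlapped that of barcodes with 3. DCN did not fall steadily among the chosen, at 42.0 with 4 rule genes, 14.6 with 5 and 73.8 with 6. The 107 barcodes were mixed, with 35 in cluster 17 and 38 in cluster 18 of the later clustering.

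Across the genome, the chosen barcodes were compared for genes with at least 5 UMIs expected in them, and a gene was called at a 2-fold ratio. Of 11408 genes, 666 (5.84%) were 2-fold or more higher and 1442 (12.6%) 2-fold or more lower in the chosen barcodes than in the other E37 barcodes, and the median log2 ratio of all of them was 0.07. Barcodes picked for 6 genes that mark a cell type also differ in the other genes of that type, so the values below describe the group and test nothing. The lists of marker and pathway genes hold no rule gene.

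Of 20 other genes known for the metanephric mesenchyme, 15 had enough UMIs and 12 were called higher, with a median log2 ratio of 2.51. GDNF had 118 UMIs, or 79.9 CPM (66.2 to 95.7), against 4.20 in the other barcodes, a 19.01-fold difference (14.9 to 24.2). It was seen in 36.0% of the chosen barcodes, with up to 7 UMIs in a barcode. PAX2, the paired-box factor of all nephric tissue, was sparse, with 30 UMIs in 26 of the 172 barcodes against 38 UMIs in the other 5126, a 20.7-fold ratio (12.4 to 34.4) on fewer UMIs than the call asks for. OSR1, a zinc-finger factor of early intermediate mesoderm, was 7.13-fold higher (5.76 to 8.75) and HOXC11, the remaining HOX11 gene, 7.97-fold higher (5.27 to 11.8).

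Signalling and adhesion genes of the same list were high as well. BMP7, a survival signal for nephron progenitors, was 18.7-fold higher (14.4 to 24.3), and FGF20, another progenitor survival signal, had 16 UMIs against 26 (16.2-fold, 8.10 to 31.3). TMEM100, a membrane protein, was 13.4-fold higher (11.3 to 16.0). ITGA8, the integrin of the mesenchyme facing the bud, was 5.68-fold higher (4.73 to 6.77), and ROBO2, the SLIT receptor that confines GDNF to the right place, 4.60-fold higher (3.95 to 5.33). ELAVL4 was 5.97-fold, MEOX1 5.23-fold, NCAM1 2.47-fold and WT1 2.46-fold higher. WT1, required for the survival of this mesenchyme, was also present in 31.8% of the other barcodes.

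Not every gene of the list was high. FGF9 stood at 6.10 against 10.96 CPM and FGFR1 at 80.6 against 87.3, both within 2-fold. EYA4 was called lower on 2 UMIs in the chosen barcodes (ratio 0.166, 0.0200 to 0.606). CRYM and DAPL1 had 1 UMI each in the chosen barcodes, and LYPD1 had 0 UMIs in the whole E37 library. The name metanephric mesenchyme-like was kept as a label. The 12 of 15 measured markers called higher, against 5.84% of all measured genes, do not test it.

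Free RNA in droplets can put stray UMIs into any barcode. In 225 E37 barcodes with at least 3 endothelial markers, a type that should lack kidney genes, and with a median of 8533 UMIs, GDNF, OSR1, PAX2, PAX8, FIGF and LBX2 were not seen, and 0 of 225 allows a share of up to 1.33%. HOXD1 was seen in 0.444% of them. HOXA10 was seen in 13.3%, KLHL14 in 2.22%, WT1 in 4.89%, TMEM100 in 10.2% and ITGA8 in 20.4%, in each case below the share in the chosen barcodes. TMEM100 was high in endothelial cluster 24 of the later clustering (1106 CPM), so its shares here do not measure free RNA alone. After thinning to 2000 UMIs the shares in chosen and endothelial barcodes were 64.0% and 2.22% for HOXA10, 19.8% and 7.56% for TMEM100 and 14.5% and 4.89% for ITGA8.

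The genes that stood highest by the bound of their interval included FIGF, KLHL14, HOXD1, LBX2, CXCR4, ETV4, RDH10, GDNF, BMP7, PAX8, CLDN1, LURAP1L, SPOCK2 and HOXA10. FIGF, an older symbol of the growth factor VEGFD, had 67 UMIs in the chosen barcodes and 33 in all the others, a 53.3-fold difference (34.7 to 83.5), and LBX2, a homeobox gene, had 54 against 37 (38.3-fold, 24.8 to 59.9). Both had fewer expected UMIs than a call asks for and were named through their 50 or more UMIs in the chosen barcodes. KLHL14 was 34.8-fold higher (26.8 to 45.2) and HOXD1 33.2-fold (25.8 to 42.9), and they were seen in 51.7% and 54.7% of the chosen barcodes. CXCR4, the receptor of the chemokine CXCL12, was 28.5-fold higher (22.9 to 35.4) but seen in 40.1%, with up to 16 UMIs in a barcode. RDH10, which makes the retinaldehyde needed for retinoic acid, was 18.3-fold higher (15.7 to 21.3). CLDN1, a tight-junction protein, was 15.9-fold, LURAP1L 16.9-fold and SPOCK2, a matrix proteoglycan, 13.6-fold higher. These ratios are against all other barcodes together. Endothelial cluster 24 held CXCR4 at 323 and SPOCK2 at 346 CPM, above cluster 17, at 112 and 122.

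**Figure D2:**
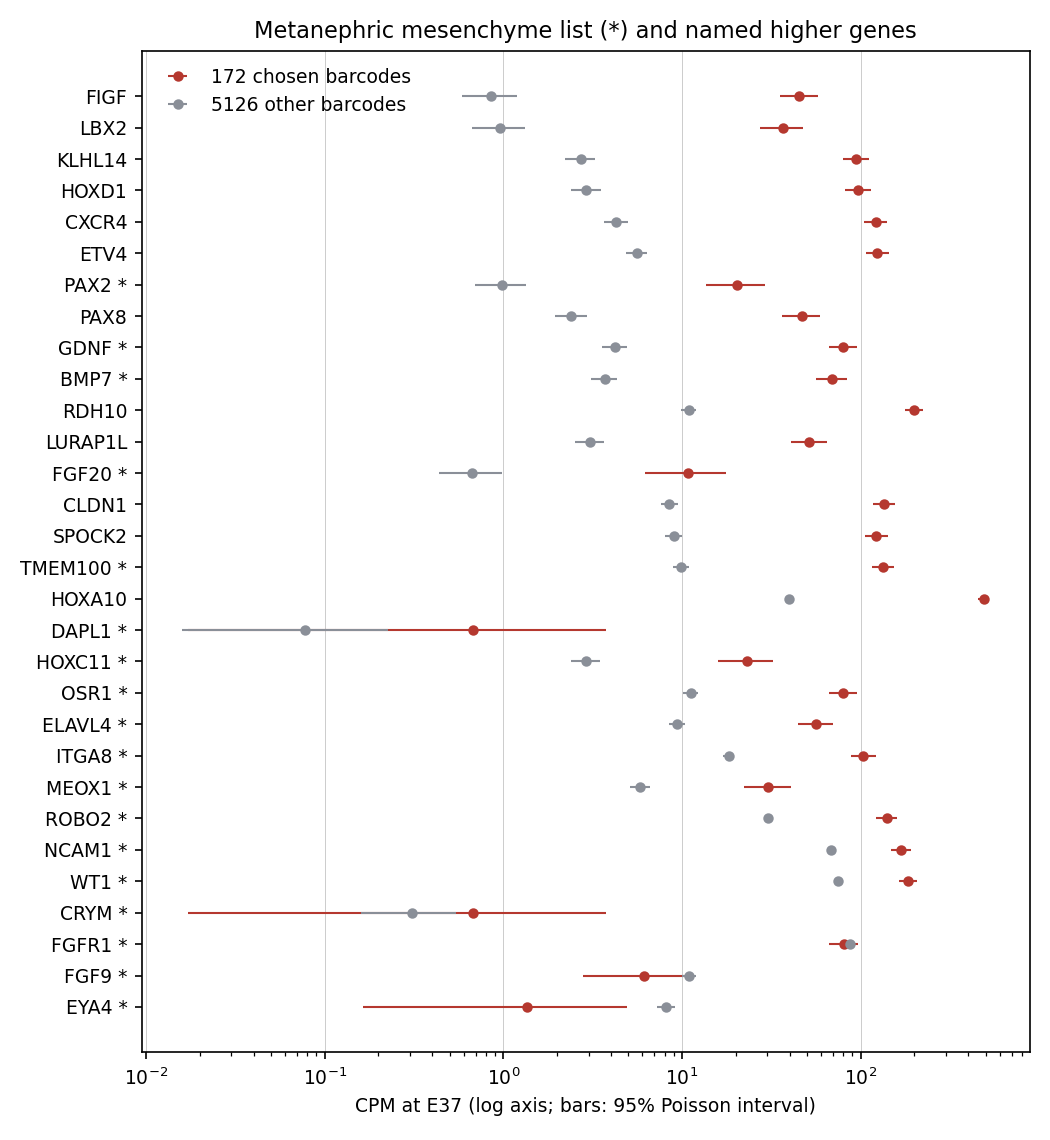
CPM (log axis) in the 172 chosen (red) and 5126 other E37 barcodes (grey), with 95% Poisson intervals, for the genes of the metanephric mesenchyme list (starred; LYPD1, with 0 UMIs, is left out) and the named higher genes, ordered by ratio. Intervals of the 2 groups do not overlap from FIGF, at 45.4 against 0.851, down to WT1, except for DAPL1, and CRYM, FGFR1 and FGF9 overlap.

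HOX genes of the posterior paralogue groups, which mark position along the trunk, were higher as a group. Of 8 genes of groups 9 to 13 with enough UMIs (the rule genes left out), 7 were called higher, with a median log2 ratio of 2.08. The share over all measured genes was 5.84%. HOXA10 had 721 UMIs, or 489 CPM (453 to 526) against 39.5, a 12.4-fold difference (11.3 to 13.5), and was seen in 169 of 172 chosen barcodes. HOXD10 was 7.40-fold, HOXC10 4.89-fold, HOXA9 3.63-fold, HOXB9 3.63-fold and HOXD9 3.54-fold higher, while HOXC9 stood at 90.8 against 71.8. HOXA13 had 1 UMI, and HOXD13, HOXC13, HOXB13 and HOXC12 had 0 in the chosen barcodes. Among the anterior and middle groups 1 to 8, 10 of 20 were called higher and 1 lower (12.6% of all measured genes were lower), with a median log2 ratio of 0.95. The higher ones included HOXB2 (6.32-fold, 5.65 to 7.06) and HOXB5 (3.92-fold), and the lower one was HOXC5 (ratio 0.214, 0.0860 to 0.444).

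In the GDNF and RET axis the ligand and its co-receptor were higher. Of 7 measured genes 4 were called higher (GDNF, GFRA1, ETV4 and ROBO2) and none lower, with a median log2 ratio of 2.20. The shares over all measured genes were 5.84% higher and 12.6% lower. GFRA1, the lipid-anchored co-receptor, stood at 128 against 21.2 CPM (6.05-fold, 5.14 to 7.10). RET itself, the signalling receptor of the bud, had 4 UMIs, or 2.71 against 3.59 CPM. ETV4, a factor switched on by RET and FGF signals, was 22.2-fold higher (18.1 to 27.1), and its relative ETV5 had 11 UMIs against 26 in all other barcodes. SPRY1 stood at 35.2 against 20.5 and SLIT2, the ROBO2 ligand, at 37.9 against 48.2. GREM1, a BMP antagonist that permits bud growth, had 12 UMIs against 34.

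Genes of the induced nephron were mostly low, with 1 of 8 measured genes called higher and 6 lower (5.84% and 12.6% of all measured genes). The higher one was PAX8, at 46.8 against 2.40 CPM (19.5-fold, 14.1 to 26.9). WNT4, the signal for the change from mesenchyme to epithelium, had 0 UMIs, at least 4.39-fold lower than in the other barcodes. LHX1 had 7 UMIs, all in 1 barcode, and JAG1, a NOTCH ligand, was 2.58-fold lower (1.70 to 4.13). CDH6 was 8.91-fold and CCND1 6.97-fold lower, and FGF8, POU3F3 and HES5 had 0 UMIs in the library.

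Most markers of the other cell types of the dissection were low. All 6 measured podocyte genes were called lower, 5 of 6 gonadal somatic genes, 8 of 9 sympathoadrenal genes, and all 7 glial, 8 endothelial, 7 macrophage and 6 erythroid genes. Over all measured genes 12.6% were called lower. Summed over each list, the chosen and other barcodes held 62.3 and 125 CPM for the gonadal list, 21.0 and 253 for the endothelial, 4.74 and 161 for the macrophage and 23.7 and 6437 for the erythroid list. Among the 15 genes that stood lowest were CHGA, a granule protein of chromaffin cells, with 0 UMIs (at least 68.7-fold lower), AHSP, a globin chaperone (at least 26.2-fold), C1QA (at least 24.2-fold), CLDN5 (at least 20.8-fold), CDH5 (at least 14.5-fold) and TYROBP (at least 16.0-fold). The list also held CHGB, ALAS2, C1QC and SDPR, at 0 UMIs, and LUM, RNASE1, APOA1, C1QB and SPP1, at 1 to 5 UMIs. HBZ, the embryonic globin, had 33 UMIs spread over 33 chosen barcodes (19.2%), close to the 20.5% of the other barcodes with one.

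Some members of these and related lists were called higher, beside 5.84% of all measured genes higher and 12.6% lower. Of 8 nephric duct and ureteric bud genes GFRA1 and EPCAM were, while 4 were lower, among them GATA3, a duct factor, at 4.74 against 34.2 CPM (7.21-fold lower, 3.49 to 17.97). Of 4 adrenocortical genes SCARB1, a lipoprotein receptor, was 2.31-fold higher (1.67 to 3.14), and DLK1 was 11.1-fold lower (9.75 to 12.8). Of 3 germ cell genes NANOS3 was 2.46-fold higher (1.35 to 4.19) on 15 UMIs, while POU5F1 and SOX17 had 0.

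Stromal and fibroblast genes were mostly lower than in the other E37 barcodes of all types together, beside 12.6% of all measured genes. Of 11 measured renal stroma genes 7 were called lower, among them FOXD1, the factor of kidney stroma, with 2 UMIs (ratio 0.221, 0.0266 to 0.807), TBX18 with 4 UMIs (11.1-fold lower, 4.32 to 40.7) and PDGFRB (7.90-fold, 4.78 to 14.1). TCF21, shared by stroma and podocytes, stood at 137 against 118. Of 9 fibroblast and matrix genes 8 were called lower: COL1A1 was 5.44-fold lower (4.64 to 6.43) and DCN 12.2-fold (9.02 to 17.1), with the 41 DCN UMIs of the chosen barcodes in only 10 of them. NFIA was 7.78-fold (5.22 to 12.2) and NFIB 6.67-fold lower (5.12 to 8.87). COL2A1 and COL9A1, known from cartilage, were 6.25-fold (5.46 to 7.15) and 8.32-fold higher (6.53 to 10.5), while SOX9 stood at 9.49 against 10.4 and ACAN and MATN1 had 0 UMIs in the chosen barcodes.

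Among epithelial genes, EPCAM, an adhesion protein, was 2.65-fold (1.86 to 3.69) and LAMA1, a basement membrane chain, 3.80-fold higher (2.39 to 5.79). The simple keratins KRT8 and KRT18 were 13.7-fold and 24.02-fold lower, on 6 and 2 UMIs. VIM, the mesenchymal filament protein, was 2.77-fold lower (2.62 to 2.92). Of 12 retinoic acid genes 2 were called higher, RDH10 and CRABP2 (2.22-fold), and 5 lower, among them ALDH1A2, the main synthesising enzyme (2.44-fold, 1.88 to 3.23). The shares over all measured genes were 5.84% and 12.6%.

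In each of the FGF, BMP and TGFB, WNT, NOTCH and hedgehog lists 0 or 1 gene was called higher. Over all measured genes 5.84% were higher and 12.6% lower, so the low number of higher genes is not a result about these pathways. Of 9 measured FGF genes ETV4 was higher, and FGF7, a mesenchymal ligand, was 16.6-fold lower (7.63 to 45.3), while the feedback genes SPRY2 and DUSP6 stood at 37.9 against 23.9 and 91.5 against 64.2 CPM. Of 15 BMP and TGFB genes BMP7 was higher and 6 were lower. BMP5 was 12.6-fold lower (4.89 to 46.1), BMP4 stood at 79.3 against 107, and ID1, a target of BMP signals, at 378 against 402. Of 12 WNT genes RSPO1, a WNT amplifier, was higher and 5 were lower, among them the secreted WNT antagonists SFRP1 (7.21-fold, 5.83 to 9.03) and SFRP2 (5.58-fold, 4.26 to 7.46). The WNT targets AXIN2 and LEF1 stood at 13.6 against 10.4 and 27.1 against 23.99 CPM. None of 8 NOTCH genes was higher and 4 were lower, and HES1, a NOTCH target, stood at 164 against 102. None of 6 hedgehog genes was higher and 2 were lower, among them GLI1, on 4 UMIs.

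**Figure D3:**
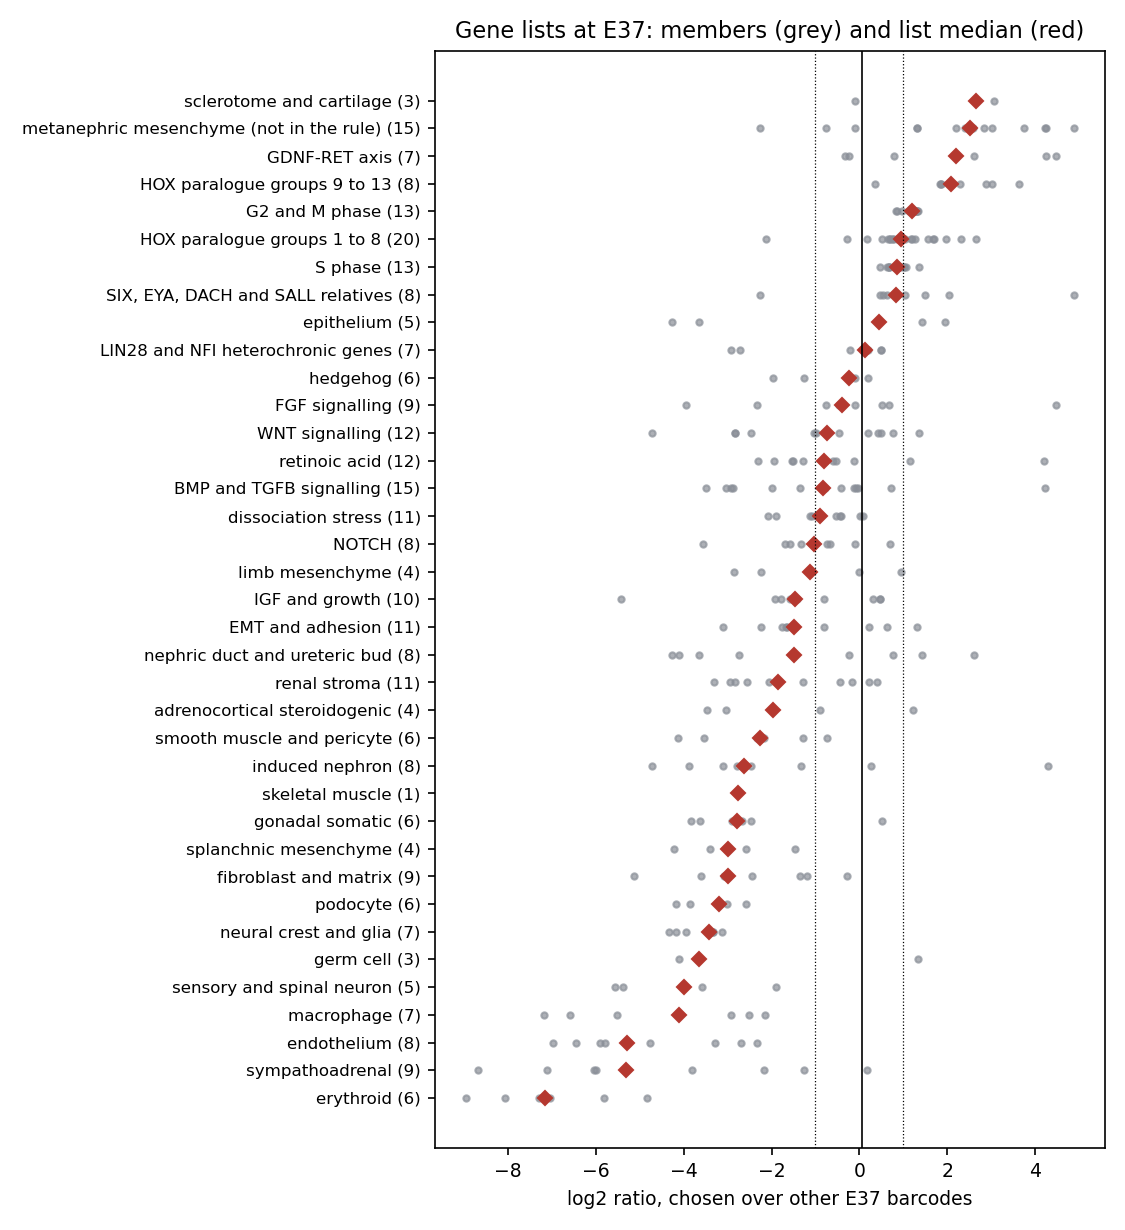
Log2 ratio of the chosen over the other E37 barcodes for each measured gene (grey) of 37 lists, with the list median in red and the number of measured genes in brackets. The solid line is the median of all measured genes, 0.07, and dotted lines mark 2-fold; the metanephric mesenchyme list has a median of 2.51 and the erythroid list one of -7.16.

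Proliferation genes were higher in the chosen barcodes. Of 13 genes of the G2 and M phases 10 were called higher and none lower (median log2 ratio 1.20), and of 13 S phase genes 4 were (median 0.86). Of all measured genes 5.84% were called higher. TOP2A stood at 479 against 193 CPM (2.48-fold, 2.29 to 2.68), and MKI67 at 211 against 94.0 (2.25-fold). Thinned to 2000 UMIs, TOP2A was seen in 32.0% of the chosen and 14.5% of the other barcodes. The barcodes had been chosen before thinning, so it cannot remove an effect of depth on the choice. Cluster 17 of the later clustering held MKI67 at 209 in its chosen and 60.0 in its other barcodes, and TOP2A at 482 and 184. Barcodes neither chosen nor in that cluster held 94.5 and 193. The chosen barcodes there were deeper (median 7710 against 6186.5 UMIs). Whether the rule favoured cycling barcodes was not tested.

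The E37 barcodes were also clustered with the 6 rule genes left out. Of 27 clusters, 1 of 236 barcodes (cluster 17) held 162 of the 172 chosen (94.2%, 89.6% to 97.2%), and 74 of its barcodes had not been chosen. Its 10 leading genes included EYA1, HOXA10, CXCR4, HOXD1, KLHL14, SALL1, HOXA11, RDH10 and CITED1, of which 4 are rule genes left out of the clustering. As 162 of the 236 barcodes were chosen by the rule genes, their place among the leading genes follows from the choice. Barcodes with 2 rule genes fell into cluster 17 in 35 of 107 cases (32.7%), those with 3 in 65 of 74 (87.8%), those with 4 in 69 of 69, those with 5 in 23 of 23 and those with 6 in 5 of 6. The 74 barcodes of cluster 17 that had not been chosen were shallower (median 6186.5 UMIs, against 7710 for the chosen there). They held KLHL14 at 106 CPM (99.7 in the chosen of the cluster), HOXA10 at 517 (509) and PAX8 at 49.7 (50.2). GDNF stood at 45.5 (84.2), TMEM100 at 55.9 (142) and MKI67 at 60.0 (209). SIX2 stood at 14.5 (87.9), but it is a rule gene, so barcodes that failed the rule hold less of it by the choice itself.

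The 10 chosen barcodes outside cluster 17 lay in 8 other clusters. They were deeper, with a median of 12462 UMIs, and their median Scrublet score was 0.100 against 0.0193 for the 162 in cluster 17. They held GDNF at 32.9 and CXCR4 at 8.23 CPM, and 10 of the 39 EPCAM UMIs and all 7 LHX1 UMIs of the chosen barcodes. The chosen barcodes of cluster 17 thus had no LHX1 UMI.

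**Figure D4:**
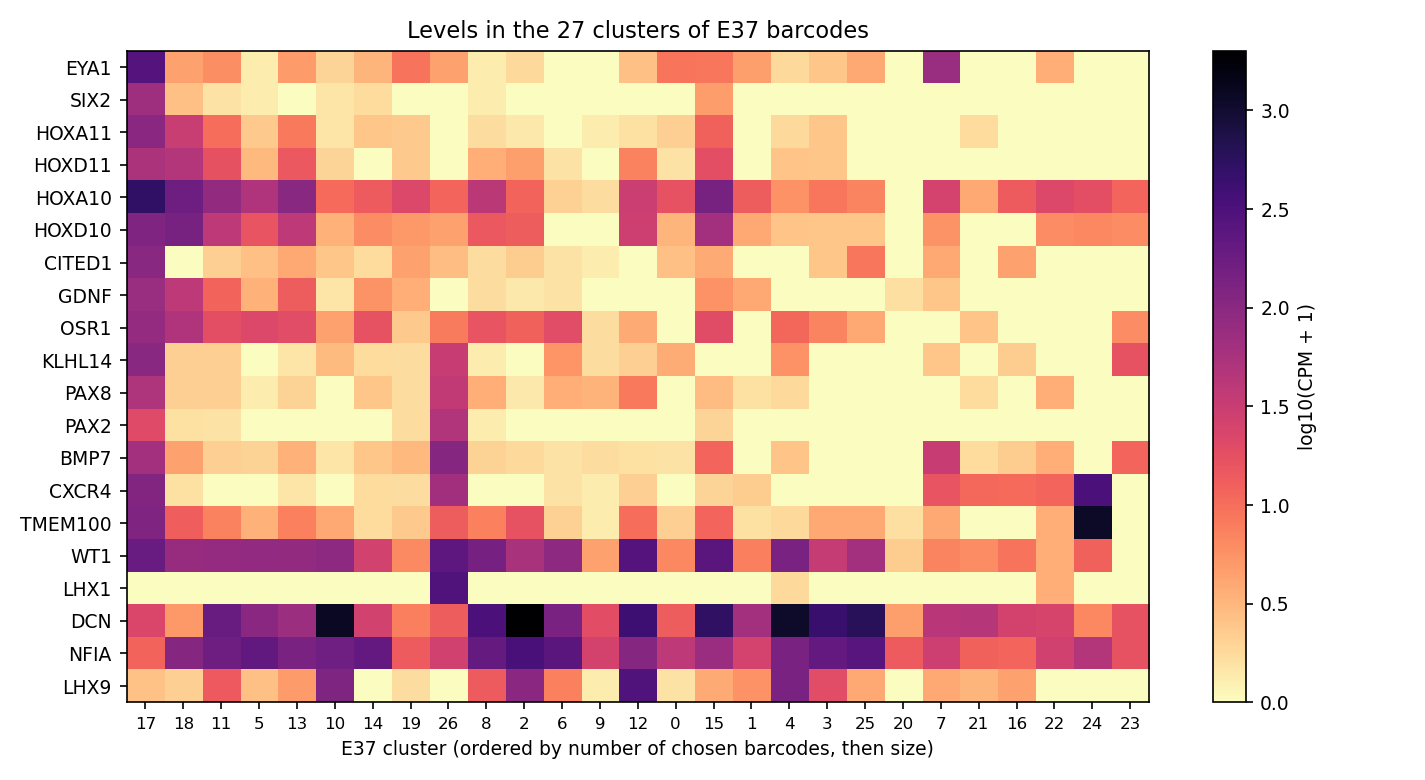
Level of 20 genes, as log10(CPM + 1), in the 27 clusters of E37 barcodes, ordered by the number of chosen barcodes. Cluster 17, with 162 chosen barcodes, is first and is dark from EYA1 to WT1; cluster 18 shares HOXA10 and HOXD10, cluster 26 shares PAX8, PAX2 and BMP7, and LHX1 is high in cluster 26 (296) and at 0 in cluster 17.

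Clusters 15, 18 and 26, picked after their values were seen, each shared some genes with the chosen barcodes. No measure of likeness was computed over the clusters. Cluster 15, with no chosen barcode and EMX2, LUM, PODXL and KRT8 among its leading genes, held HOXA10 at 138, ITGA8 at 73.1, RDH10 at 87.3 and COL2A1 at 133 CPM, and GDNF at 4.74. Cluster 18 (284 barcodes not chosen) was led by HOXD10, HOXA10, HOXD11 and HOXC10 and held 38 of the 107 barcodes with 2 rule genes. The clusters were built from the other genes and the rule chose by the 6 rule genes, so the differences are a description. HOXD10 stood at 131 in the chosen barcodes and 139 in cluster 18 (ratio 0.942, 0.775 to 1.14), HOXC10 at 48.1 and 50.7, HOXD11 at 62.3 and 44.9 and CRABP2 at 394 and 379. GDNF was present in cluster 18 at 38.5, with the chosen barcodes 2.08-fold higher (1.52 to 2.85), and OSR1 at 49.0 (1.63-fold, 1.22 to 2.19). KLHL14 was 80.7-fold (21.9 to 673) and BMP7 19.8-fold higher (8.77 to 55.1) in the chosen barcodes, and CXCR4 and SPOCK2 had 1 UMI each in cluster 18. Of the rule genes, SALL1 stood at 152 and 26.8. Cluster 18 had more COL1A1 (491 against 102), IGFBP5 (665 against 160), PDGFRB (50.1 against 10.2) and NFIA (106 against 16.3), and little TOP2A (9.91 against 479).

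Cluster 26 (68 barcodes not chosen) had PODXL, a podocyte gene, EPCAM, FXYD2 and LHX1 among its leading genes. PAX8 stood at 46.8 in the chosen barcodes and 36.4 in cluster 26 (1.28-fold, 0.766 to 2.23), CLDN1 at 136 and 153, and SPOCK2 at 123 and 120. PAX2 was lower in the chosen barcodes, at 20.3 against 45.5 (ratio 0.447, 0.254 to 0.791). KLHL14 was 3.23-fold (1.92 to 5.81) and HOXD1 3.33-fold higher (1.98 to 5.98). HOXA11, HOXD11, SIX2, GDNF and ITGA8 had 0 UMIs in the whole of cluster 26, and EYA1, CITED1 and HOXD10 had UMIs there only in its 1 chosen barcode (3.51, 1.75 and 3.51 CPM over the cluster). LHX1 stood at 295 there against 4.74.

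The chosen barcodes could be divided further. At a finer clustering (Leiden resolution 2) 94 of them fell into 1 cluster and 68 into another, with median depths of 6261.5 and 10586.5 UMIs. The sets come from clustering on expression in these same barcodes and differ in depth, so their values are a description. TOP2A stood at 54.7 in the 94 and 844 in the 68, MKI67 at 20.9 and 368, and the G2 and M phase list summed to 322 and 4992. GDNF was at 88.5 and 80.5 (ratio of the 68 to the 94, 0.909, 0.618 to 1.34), WT1 at 183 and 201, TMEM100 at 140 and 143 and PAX8 at 46.7 and 53.2. SIX2 stood at 111 and 68.2 (0.614, 0.418 to 0.897), HOXA10 at 587 and 443, IGFBP5 at 253 and 73.7 and RSPO3, a WNT amplifier, at 248 and 109.

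A split by the rule genes themselves uses the values that chose the barcodes, since those without a gene must hold 3 of the other 5, and is a description. The 144 barcodes with HOXA11 or HOXD11 held GDNF at 87.5 (71.8 to 106), against 39.1 (17.9 to 74.3) in the 28 without, on 109 and 9 UMIs. HOXA10 was at 486 and 500.1, and PAX8 at 46.6 and 47.8 in the same 2 sets. TMEM100 stood at 181 (152 to 214) in the 92 barcodes with SIX2 and at 81.1 (61.4 to 105) in the 80 without, GDNF at 69.9 and 91.0, and DCN at 50.5 and 2.84. CXCR4 was at 151 (126 to 180) with CITED1 and 83.5 (62.5 to 109) without, and MKI67 at 232 (200.4 to 267) and 184 (152 to 221). Barcodes with CITED1 were deeper (median 8357 against 6824 UMIs), and those with SIX2 shallower (7185 against 8155).

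The same rule chose 219 barcodes at E24 (2.06%), 180 at E28 (3.58%) and 206 at E31 (3.09%), but with other gene combinations. EYA1 with SALL1 and CITED1 alone made up 116, 119 and 135 of them, and HOXA11 or HOXD11 was seen in 92 (42.0%), 20 (11.1%) and 19 (9.22%), against 83.7% at E37. Barcodes with 4 or more rule genes numbered 17, 20 and 38, against 98 at E37. Thinned to 2000 UMIs, the rule would choose 7, 3 and 9 barcodes, against 24 at E37. Stage, dissected tissue and depth (median 13845, 16009.5, 13572 and 7727 UMIs in the chosen) differ together between the libraries, so they cannot be told apart, and the differences between libraries were not tested.

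Within each library the metanephric mesenchyme list had a median log2 ratio of 0.51 at E24 (5 of 14 measured genes called higher, 2.0% of all genes), 1.16 at E28 (8 of 15, 1.72%), 1.46 at E31 (8 of 15, 1.95%) and 2.51 at E37 (12 of 15). Genes called lower made up 5.96%, 9.56% and 8.50% of all measured genes at E24, E28 and E31. GDNF stood at 33.5, 31.0, 52.7 and 79.9 CPM in the chosen barcodes, and at 4.73, 6.20, 5.72 and 4.20 in the others. HOXA10 stood at 196, 158, 158 and 489, TMEM100 at 8.96, 18.1, 43.2 and 133, and RDH10 at 22.5, 70.8, 91.1 and 199.9. These 3 were highest at E37 in the chosen barcodes, with intervals that did not overlap those of the other libraries.

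For PAX8 and BMP7 the other barcodes of E37 held less than those of the earlier libraries. PAX8 was at 42.5, 216, 172 and 46.8 in the chosen barcodes, and in the others at 8.26, 109, 83.4 and 2.40. BMP7 was at 33.5, 41.4, 41.8 and 69.1, and in the others at 24.8, 30.7, 31.0 and 3.69. Of the induced nephron genes, LHX1 and JAG1 were lowest in the chosen barcodes of E37: LHX1 was at 25.1, 167, 136 and 4.74, and JAG1 at 68.5, 177, 181 and 14.9. WNT4 had 3, 43, 48 and 0 UMIs. LIN28A, which binds RNA and is known from pluripotent and early embryonic tissue, was at 271, 52.4, 63.9 and 0.678 in the chosen and at 192, 48.3, 59.6 and 2.89 in the other barcodes.

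**Figure D5:**
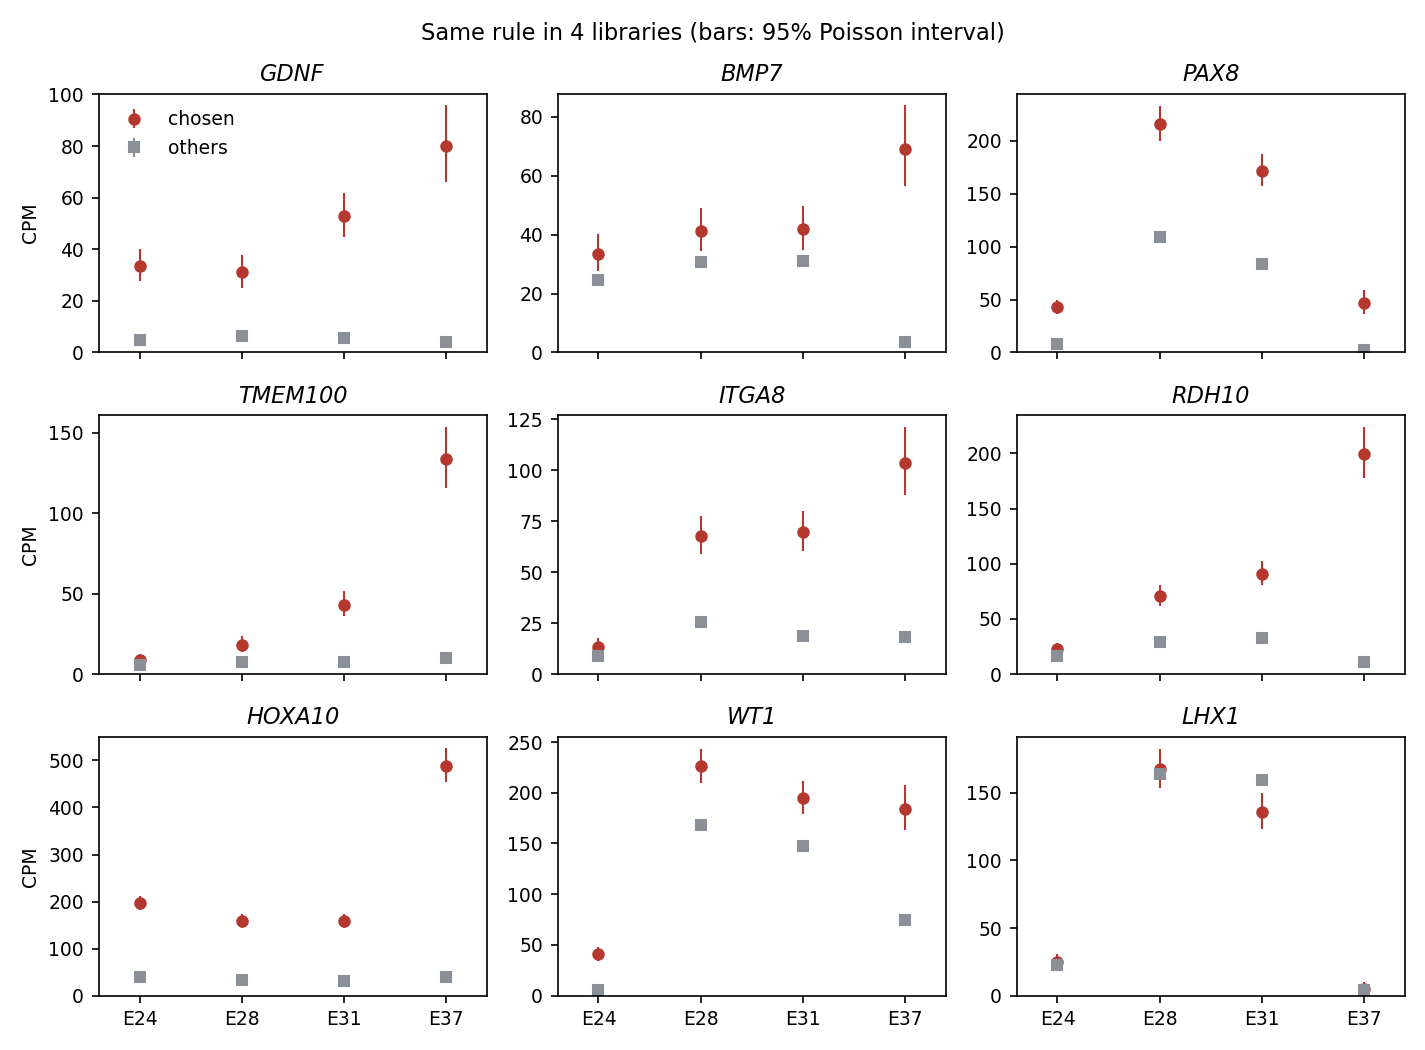
CPM in the chosen (red circles) and other barcodes (grey squares) of each library, with 95% Poisson intervals, for 9 genes. GDNF, BMP7, TMEM100, ITGA8, RDH10 and HOXA10 are highest in the chosen barcodes of E37, at 79.9 for GDNF, while LHX1 stands at 4.74 there, beside 4.23 in the other barcodes.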

How the data were processed

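Single-cell RNA was counted in 4 droplet libraries, 1 per stage, and E37 was the library described. The deposited files hold raw UMI counts per gene and barcode, per the file headers, and the authors had already reduced them to called cells. Cell Ranger 2.1.0 made them, per the submitters' processing notes; the build and the gene annotation were not given in the sources used here, and the labels' protocols name both v2 and v3 kits. Of 26223 gene rows, 673 named only by a LOC identifier were given a symbol from the reference table, and 1 row without a name held 0 UMIs. No sequence is printed.

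No further filter was put on barcodes. Scrublet called 4 of 5298 E37 barcodes (none chosen), too few for the call to have worked, so doublets were kept, and the 225 highest scores (0.8% per 1000 barcodes) were removed as an alternative. Counts were summed over barcodes and divided by their total. A gene was measured at 5 or more expected UMIs in the chosen barcodes and called at 2-fold on a log2 ratio with 0.5 UMI added to each count, with rule genes left out of the calls. Clusters came from scanpy 1.11.5 (2000 variable genes less the rule genes, 30 principal components, 15 neighbours, Leiden resolution 1, seed 0; igraph 0.11.9, Python 3.11.15, numpy 2.4.6, scipy 1.17.1). Leading genes of a cluster have the highest ratio of their level to the median over clusters, with 5 CPM added to both, among genes in at least 20% of its barcodes. Ratios, intervals and calls were tested on simulated counts.

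The genes named are the 15 per direction whose 95% interval bound lies farthest from 1, with at least 50 UMIs in the higher group and a symbol, leaving out ribosomal, globin and rule genes, plus the metanephric mesenchyme list and called members of other lists. Other genes given with values were chosen after their values were seen. The members, the rule and the 37 lists were chosen with earlier results of these data known. CITED4, IGF2, H19 and MEG3 were not analysed here, and a few other genes that the rule names are not reported here.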

Additional observations from a re-analysis of the deposited data

Results flagged for a closer look

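For 8 genes the chosen barcodes of E37 and of an earlier library lay past 2-fold on opposite sides of the other barcodes of their own library. The difference between libraries was not tested, and the chosen barcodes of the libraries held different combinations of the rule genes. CLDN1, a tight-junction gene, had a log2 ratio of -1.44 at E28 (20.04 against 54.6 CPM) and of 3.99 at E37 (136 against 8.51). WNT4 had one of 2.01 at E31 (16.3 against 4.08) and 0 UMIs in the chosen barcodes of E37, where the others stood at 8.93.

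The other 6 were higher in the chosen barcodes of the earlier library and lower at E37. At E24 the log2 ratio was 1.40 for ISL1, 1.25 for BMP2, 1.19 for SNAI1 and 1.02 for DKK1, and at E37 it was -1.26, -2.87, -1.65 and -1.03, on 13, 2, 6 and 23 UMIs. POU5F1 had a log2 ratio of 1.73 at E28 (47 UMIs) and 0 UMIs in the chosen barcodes of E37. ACTA2, a smooth muscle actin, had one of 1.07 at E31 and of -2.33 at E37.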

How the results depend on the processing

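No paired analysis was possible because each stage has 1 library and the results come from no test. The share of E37 barcodes chosen (3.25%) became 5.27% with at least 2 rule genes and 1.85% with at least 4. It was 2.51% with HOXA11 left out of the rule, 2.095% without EYA1, 2.64% without SIX2, 2.47% without SALL1 and 2.77% without CITED1. With the rule applied after thinning to 2000 UMIs it was 0.453%, and the counts of genes higher and lower fell to 237 and 452 of 4375 measured genes. The median of the metanephric mesenchyme list was then 1.42, over 4 genes and 24 barcodes. With no filter on low counts 5476 genes were higher and 2514 lower of 20556, and with at least 20 expected UMIs 279 and 634 of 7439. These 3 settings test other numbers of genes by construction. At Leiden resolution 2, 54.7% of the chosen barcodes lay in 1 cluster. In the other alternatives the list median stayed between 2.21, with at least 2 rule genes, and 2.59, after weighting the other barcodes to the same depth. Of 47 named genes 33 shifted in at least 1 of 18 settings, and 0 of those past 2-fold changed sign. A shift was a value outside the gene's interval. For genes whose 0 UMIs left no finite interval, it was a fixed fold away from the main value. The settings chosen after the data were seen were 3. Chosen barcodes of cluster 17 alone gave 695 genes higher and 1489 lower, counts without globin genes 606 and 1511, and barcodes not shared between libraries 672 and 1424. Depth limits the sparse genes: 0 UMIs in the chosen barcodes allow up to 2.03 CPM, and FIGF, LBX2, PAX2 and FGF20 lay below the UMIs asked for a call.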

Other observations

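Rows named only by a LOC identifier were left out of the naming rule, and those below were chosen after their values were seen. LOC102118545, a protein-coding gene that lies between CCDC178 and KLHL14 in the T2T-MFA8v1.1 gene table, had 224 UMIs in the chosen barcodes and 95 in all other E37 barcodes, a 61.9-fold difference (48.5 to 79.6), and was seen in 61.6% of the chosen barcodes. LOC107127803, a long non-coding RNA between HOXB7 and HOXB6, was 25.8-fold higher (21.1 to 31.4), and LOC107129226, listed between HOXA13 and HOXA11, 21.8-fold (18.6 to 25.5), seen in 79.7%. LOC107127132 and LOC101865442 were 76.2-fold (45.1 to 134) and 47.9-fold higher (32.2 to 72.4). Whether any of these rows holds reads of a neighbouring gene was not tested.

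HOXB1, a gene of the anterior HOX group, had 18 UMIs in the chosen barcodes and 5 in the other 5126, a 94.6-fold ratio (33.8 to 326), and FGF10 had 14 against 32 (11.5-fold, 5.67 to 22.2). Both were below the number of UMIs asked for a call and were chosen after their values were seen. DACH2 (4.08-fold, 2.61 to 6.14), DACH1 (2.81-fold) and CITED2 (2.04-fold), relatives of the factors in the rule, were higher, and RSPO1, a WNT amplifier, was 2.51-fold higher (1.63 to 3.74). Of 10 measured genes of the IGF list 0 were higher, against 5.84% of all measured genes, and 6 lower: IGF1 had 0 UMIs, at least 7.12-fold lower, and IGFBP3 was 3.83-fold lower (3.36 to 4.38). Of 11 genes of dissociation stress 4 were called lower and none higher, JUN by 2.18-fold (1.94 to 2.46). Over all measured genes 12.6% were lower.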
